A study of Homo sapiens with 6 samples.

Results

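The transcripts of 10 receptor tyrosine kinases, EGFR, ERBB2, MET, AXL, PDGFRA, PDGFRB, FGFR1, EPHA2, INSR and IGF1R, were followed in T98G cells depleted of the kinase DYRK1A. The genes were listed by symbol and by no cut on a measured value, but earlier results of these data were known when they were chosen. All 10 were found among the 23026 genes of the normalized table and the 58174 genes of the count tables. T98G is an established human glioblastoma cell line grown in medium with serum. The cells had been transduced with lentiviral particles that expressed either a hairpin against DYRK1A (shDYRK1A) or a control hairpin (shControl), kept under puromycin and then grown without it before harvest. Each condition had 3 libraries (1A, 1B and 1C, the order in which library values are listed throughout), and before RNA isolation equal numbers of T98G cells had been mixed with a fixed number of Drosophila Kc167 cells as a spike-in. Both groups share the line, the infection and the selection, and the labels give 1 hairpin name per condition. Nothing in the labels says whether the libraries came from separate cultures, so p-values measure the spread between these libraries, which may be technical.

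Receptor tyrosine kinases are single-pass membrane proteins that bind a growth factor or a cell-bound ligand outside the cell, pair up, and phosphorylate tyrosines on each other inside it. Adaptor proteins dock on these tyrosines and start the RAS-MAPK and PI3K-AKT cascades, and the active receptor is then ubiquitinated, taken up by endocytosis and either recycled or degraded. EGFR and PDGFRA are the classical receptors amplified or mutated in glioblastoma, and MET, AXL and EPHA2 are often expressed beside them. DYRK1A is known to slow the turnover of the EGFR protein in glioblastoma cells, and Sprouty 2 (SPRY2), an inhibitor of receptor signalling, is among its substrates. The counts below measure transcripts, not receptor protein or its turnover.

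The question the libraries can answer is which receptor transcripts differ between shDYRK1A and shControl, and whether they differ more than the other genes. Human gene counts summed to between 33708297 and 42154438 per library. Normalized counts are raw counts divided by the spike-in size factor of the authors, from 0.821 to 1.21. Human counts per size factor were between 40116360 and 48090252 in shControl and between 31230657 and 36658657 in shDYRK1A, and the median log2 fold change over the 9697 genes past the expression filter was -0.40. Values are therefore also given with TMM, a scaling over the human genes alone that moves this median to 0.00, and as CPM, in which a gene's count is scaled to the total human count of its library. Equal cell numbers were mixed by design, but from bulk counts alone fewer cells and less RNA per cell cannot be told apart. DYRK1A itself had 2227, 2234 and 1895 normalized counts in shControl and 1482, 1056 and 1285 in shDYRK1A, a log2 fold change of -0.73 (SE 0.15, adjusted p 5.33e-06), and kept an adjusted p below 0.05 in each of the 6 fits without 1 library (-0.85 to -0.61). It was below -0.7 in 3 of these 6 fits, and TMM gave -0.34 (adjusted p 0.000591). Library shDYRK1A 1B stood apart from the other shDYRK1A libraries and had the highest share of unmapped reads, 15.6%. Of the 9 glial and glioma markers examined, VIM, CD44 and SOX9 passed the filter, NES, OLIG2 and CHI3L1 were low, and SOX2, GFAP and S100B were at or near 0. VIM (log2 fold change -0.72, adjusted p 1.47e-07) and SOX9 (-0.75, adjusted p 4.11e-06) fell with spike-in scaling and CHI3L1 rose (1.21, adjusted p 5.89e-10 in the wider fit described below). VIM, SOX9 and CHI3L1 were picked for this after their values were seen. Summed over the 9 markers, normalized counts ran from 135849 to 170047 in shControl and from 100557 to 116068 in shDYRK1A. The 8 markers of epithelial, blood, endothelial and neuronal cells summed to between 98 and 118 normalized counts in shControl and between 65 and 135 in shDYRK1A. The part of these markers in the receptor values was not tested.

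In shControl cells the receptors spanned a wide range of levels, compared here as normalized counts per kb of exon. AXL, the receptor for GAS6, stood at 1825 ± 199.7 (SD, n = 3 here and below) and PDGFRB, a receptor for platelet-derived growth factors, at 1413 ± 113. MET, the receptor for hepatocyte growth factor, followed with 665 ± 84.4 and EGFR with 541 ± 54.7. Below these were EPHA2, a receptor for membrane-bound ephrin-A ligands, with 416 ± 46.3, FGFR1 with 291 ± 33.6, ERBB2 with 269.7 ± 23.1 and the type 1 IGF receptor IGF1R with 136 ± 17.1. The insulin receptor INSR (32.3 ± 2.44) and PDGFRA (21.6 ± 2.42) were lowest. The ranges of the 3 libraries overlapped between the neighbours MET and EGFR and between FGFR1 and ERBB2, although MET was above EGFR, and FGFR1 above ERBB2, within each of the 3 libraries. In shDYRK1A cells AXL (923 ± 85) and PDGFRB (855 ± 85.5) were still the highest, and their library ranges now overlapped. The order changed lower down: ERBB2 was 7th of the 10 in every shControl library and 5th in every shDYRK1A library, ahead of EPHA2 and FGFR1. Of the summed level of the 10 receptors per kb, AXL made up 32.5 ± 0.717% in shControl and 27.3 ± 0.471% in shDYRK1A. EGFR made up 9.65 ± 0.161% in shControl and 11.8 ± 0.651% in shDYRK1A. ERBB2 made up 4.82 ± 0.287% in shControl and 6.98 ± 0.451% in shDYRK1A, and the groups did not overlap for these 3 receptors. Nor did they for EPHA2, with a lower share in shDYRK1A, or for FGFR1, INSR and IGF1R, with higher shares. Shares of a sum depend on each other, so a higher share is not by itself a rise. EGFR stood at 150 ± 5.05 CPM in shControl and 148 ± 13.6 in shDYRK1A. How often such shares separate over all genes was not computed. PDGFRB took an almost equal part in both, 25.2 ± 1.05% in shControl and 25.3 ± 0.227% in shDYRK1A. The CPM of the 10 receptors summed to 932.5, 912.2 and 930.0 in shControl and 806.5, 754.4 and 820.0 in shDYRK1A. Per-kb levels rest on the union of annotated exons and not on the isoforms the cells use. For FGFR1 and IGF1R the annotation's gene coordinates differed from the deposited ones, so their exon lengths may not match the gene models counted.

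**Figure D1:**
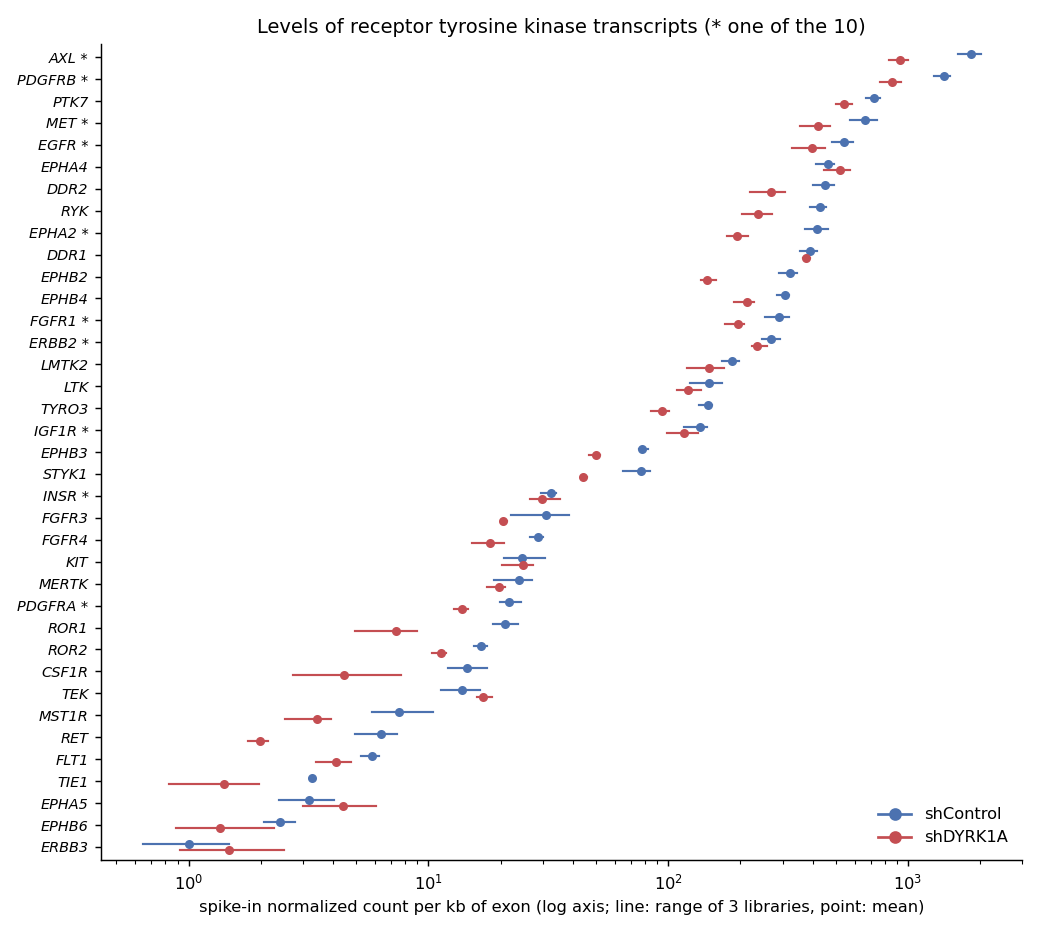
Levels of the 37 receptor tyrosine kinase transcripts that passed edgeR's low-count filter, as spike-in normalized counts per kb of exon on a log axis. Points are means and lines the range of the 3 libraries of shControl (blue) and shDYRK1A (red), and asterisks mark the 10 receptors, of which AXL and PDGFRB are the highest and PDGFRA the lowest.

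RefSeq promoter sequences (GRCh38.p14) were available for 9 of the 10 genes, all but FGFR1, and the 250 bases before the start were searched on both strands for 5 short motifs. The palindrome TCTCGCGAGA, which the study links to promoters with chromatin-bound DYRK1A, was in 0 of the 9 and in 0.373% of all 35116 promoters of this length. Only exact matches were counted here, whereas the study graded copies of the motif by p-value, so inexact copies were not sought. Its first 7 bases, TCTCGCG, which overlap the palindrome by construction, were found in IGF1R alone, against 2.95% of all promoters. The GC box GGGCGG, a site for SP1-like factors, was in 7 of the 9 promoters and in 42.6% of all. The ETS core CCGGAAG occurred at 2 places in ERBB2 and in no other of the 9, against 8.52% of all promoters, and TATAAA occurred in 0 of the 9 and in 10.7% of all. GC content was 73.6% for EGFR, 81.2% for IGF1R, 58.4% for PDGFRB and 46.8% for PDGFRA, with a median of 65.6% over the 9 and of 58% over all promoters. A match describes letters in this window and not a bound site. The windows precede the RefSeq start nearest to the start of the gene coordinates given below. These starts lay 432 bases apart for IGF1R, 380 for INSR, 196 for PDGFRA, 194 for MET and 180 for ERBB2. Most of the ERBB2 and PDGFRA windows therefore lies inside those gene coordinates. EGFR is shown as the receptor named with DYRK1A, AXL and EPHA2 because they had the lowest fold changes of the 10, and IGF1R because of its TCTCGCG match, with motif matches in capitals. The windows, 250 bases each, are chr7:55018767-55019016 (plus strand) for EGFR, chr19:41218973-41219222 (plus strand) for AXL, chr1:16156070-16156319 (minus strand) for EPHA2 and chr15:98648289-98648538 (plus strand) for IGF1R.
EGFR: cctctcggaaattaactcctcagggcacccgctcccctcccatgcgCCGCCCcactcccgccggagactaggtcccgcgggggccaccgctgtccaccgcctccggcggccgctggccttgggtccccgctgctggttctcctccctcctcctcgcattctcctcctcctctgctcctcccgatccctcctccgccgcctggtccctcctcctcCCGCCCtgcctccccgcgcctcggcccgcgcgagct
AXL: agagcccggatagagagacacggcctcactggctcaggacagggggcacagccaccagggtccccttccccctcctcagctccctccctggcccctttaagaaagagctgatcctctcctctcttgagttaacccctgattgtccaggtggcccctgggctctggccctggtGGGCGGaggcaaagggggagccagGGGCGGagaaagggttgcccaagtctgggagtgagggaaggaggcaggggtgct
EPHA2: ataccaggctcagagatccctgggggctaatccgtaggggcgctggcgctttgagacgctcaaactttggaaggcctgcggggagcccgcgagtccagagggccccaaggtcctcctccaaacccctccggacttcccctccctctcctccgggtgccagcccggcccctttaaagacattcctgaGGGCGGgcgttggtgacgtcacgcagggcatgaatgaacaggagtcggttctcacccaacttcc
IGF1R: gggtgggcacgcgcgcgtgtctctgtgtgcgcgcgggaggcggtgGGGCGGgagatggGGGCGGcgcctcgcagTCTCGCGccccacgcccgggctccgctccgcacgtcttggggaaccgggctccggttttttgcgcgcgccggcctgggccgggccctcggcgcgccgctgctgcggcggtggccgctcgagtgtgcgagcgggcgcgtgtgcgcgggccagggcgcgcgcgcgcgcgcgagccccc

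EGFR (ENSG00000146648, chromosome 7, 55019021 to 55211628, plus strand, GRCh38 here and below) was lower in shDYRK1A cells with spike-in scaling and by about as much as the typical gene. It had 7401, 6888 and 6045 normalized counts in shControl and 5646, 4118 and 5219.7 in shDYRK1A. Every shDYRK1A library was below every shControl library, with shDYRK1A 1B the lowest. The group values were 6778 ± 684 and 4995 ± 788, and the log2 fold change was -0.44 (SE 0.14, adjusted p 0.00291), so that EGFR fell by 26.3% per unit of spike-in. These and all other adjusted p-values are from edgeR's quasi-likelihood test with Benjamini-Hochberg adjustment over all genes tested. Of the 9697 genes, 43.9% had a lower fold change than EGFR. Without reference to the spike-in, EGFR stood at 154, 144 and 151 CPM in shControl and 154, 132 and 157 in shDYRK1A. The groups overlapped on this scale, and TMM gave -0.04 (SE 0.06, adjusted p 0.544). The call at an adjusted p below 0.05 was also lost without shControl 1A (-0.37, adjusted p 0.0548) or without shDYRK1A 1B (-0.32, adjusted p 0.055). The antisense gene EGFR-AS1 covers 1.49% of the exonic bases of EGFR, and whether counting used strand is not given in the sources used here.

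ERBB2 (ENSG00000141736, chromosome 17, 39687914 to 39730426, plus strand), which binds no ligand of its own and pairs with the other receptors of the EGFR family, had 2796, 3016 and 2539 normalized counts in shControl and 2659, 2301 and 2327 in shDYRK1A. Library shDYRK1A 1A lay above shControl 1C, so the groups overlapped, and the log2 fold change was -0.20 (SE 0.14, adjusted p 0.207). Relative to the library total it had 58.1, 63.1 and 63.3 CPM in shControl and 72.5, 73.7 and 69.9 in shDYRK1A, each shDYRK1A library above each shControl library. Under TMM it rose by 0.21 (adjusted p 0.00624), the opposite direction to spike-in scaling. Exons of PGAP3 and MIEN1 on the other strand overlap 7.41% of its exonic bases. The remaining family members were scarce: ERBB3, which signals mainly as a partner of ERBB2, had means of 9.06 and 13.4 normalized counts in shControl and shDYRK1A, and ERBB4 had at most 0.974 in any library.

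**Figure D2:**
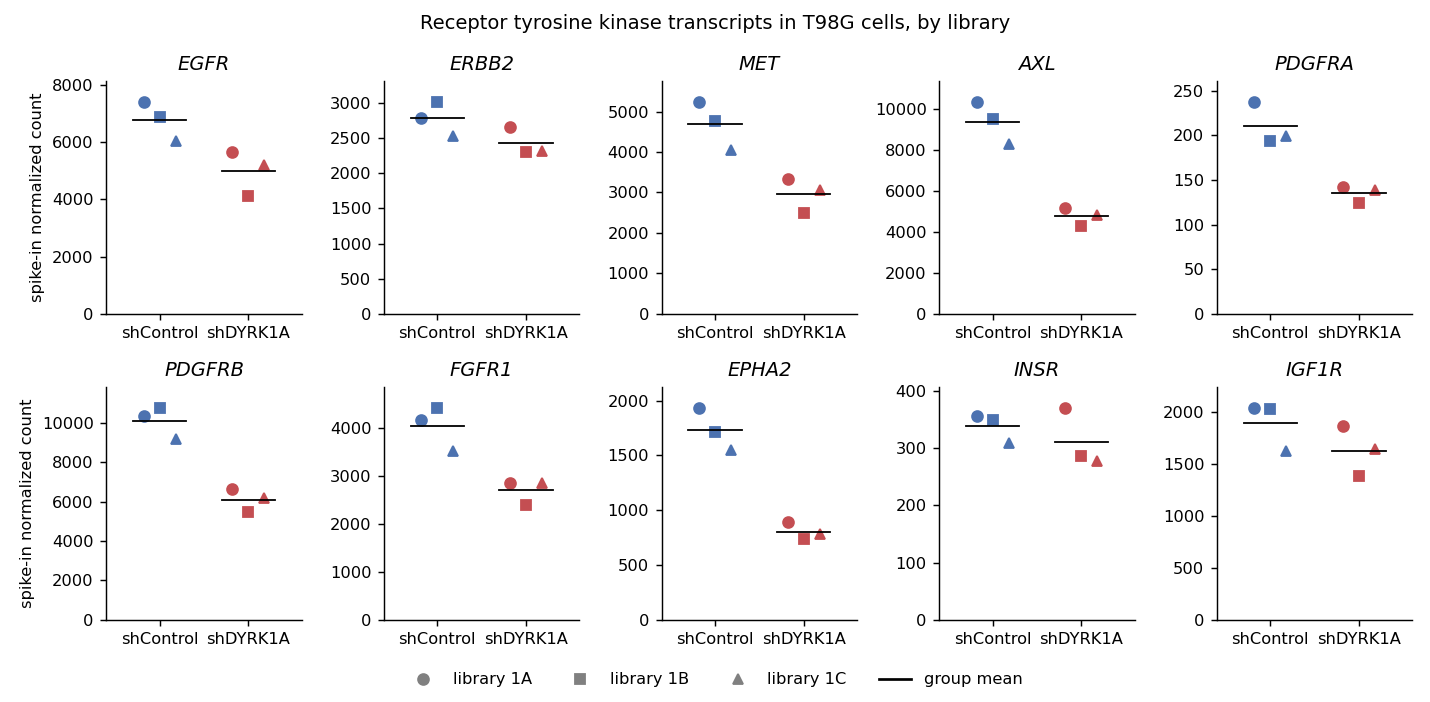
Spike-in normalized counts of the 10 receptor genes in each library, with vertical axes that start at 0 and differ between panels. Circles, squares and triangles are libraries 1A, 1B and 1C, and black lines are group means. The groups do not overlap for 7 of the 10 genes, the exceptions being ERBB2, INSR and IGF1R. Of the 9697 genes past the filter, which PDGFRA and INSR did not pass, 63.6% likewise had every shDYRK1A library below every shControl library.

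AXL and EPHA2 fell most of the 10. AXL (ENSG00000167601, chromosome 19, 41219203 to 41261766, plus strand) had 10353, 9549 and 8309.8 normalized counts in shControl and 5149.5, 4284 and 4837 in shDYRK1A. The highest shDYRK1A library was well below the lowest shControl library, and the fold change was -0.98 on the log2 scale (SE 0.14, adjusted p 1.93e-11). It was also lower relative to the library total, at 215, 199.6 and 207 CPM in shControl and 140.5, 137 and 145 in shDYRK1A, and with TMM (-0.58, adjusted p 1.09e-06). EPHA2 (ENSG00000142627, chromosome 1, 16124337 to 16156087, minus strand) had 1929.6, 1715 and 1545 normalized counts in shControl and 893, 733 and 782 in shDYRK1A, a fold change of -1.11 on the log2 scale (SE 0.15, adjusted p 2.25e-11). Its groups were far apart on every scale, with 40.1, 35.8 and 38.5 CPM in shControl and 24.4, 23.5 and 23.5 in shDYRK1A and a TMM value of -0.70 (adjusted p 2.83e-06). Only 1.87% of the genes had a lower fold change than EPHA2, and 3.39% a lower one than AXL. Both kept an adjusted p below 0.05 and a fold change below -0.7 in each of the 6 fits without 1 library.

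MET (ENSG00000105976, chromosome 7, 116672390 to 116798386, plus strand) had 5232, 4760.4 and 4052 normalized counts in shControl and 3335, 2495 and 3050.1 in shDYRK1A, with no overlap between the groups. Its log2 fold change of -0.66 (SE 0.14, adjusted p 1.45e-05) was short of the fold-change threshold of -0.7 that the study used, and it passed that threshold without shControl 1C or without shDYRK1A 1A (-0.76 in either). With TMM it was -0.26 (adjusted p 0.00193). MET had 109, 99.5 and 101 CPM in shControl and 91, 79.9 and 91.6 in shDYRK1A, again without overlap.

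The pair of platelet-derived growth factor receptors differed in level by far more than in fold change. PDGFRB (ENSG00000113721, chromosome 5, 150113837 to 150155872, minus strand) had 10334, 10729 and 9182 normalized counts in shControl and 6658, 5448 and 6193 in shDYRK1A, and every shDYRK1A library was below every shControl library. Its fold change was -0.72 on the log2 scale (SE 0.13, adjusted p 7.4e-07), and -0.32 with TMM (adjusted p 5.52e-05). It no longer passed the fold-change threshold without shControl 1B (-0.68) or shDYRK1A 1B (-0.65). PDGFRA (ENSG00000134853, chromosome 4, 54229097 to 54298247, plus strand) had only 237, 194 and 199.6 normalized counts in shControl and 143, 124 and 138 in shDYRK1A, at a mean CPM under the filter of 10. Its value came from a wider fit over the 17530 genes that passed edgeR's filterByExpr, whose median was -0.37, and was -0.64 (SE 0.20, adjusted p 0.00523). The groups overlapped in CPM, and neither TMM (-0.27, adjusted p 0.109) nor the fit without shControl 1A (-0.54, adjusted p 0.066) kept the call. Another gene on the same strand, AC058822.1, covers 15.8% of the exonic bases of PDGFRA, so reads there may have been split or lost and its count is uncertain.

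FGFR1 (ENSG00000077782, chromosome 8, 38411138 to 38468834, minus strand), a receptor for fibroblast growth factors, had 4172, 4405 and 3508 normalized counts in shControl and 2855, 2391 and 2846 in shDYRK1A. The groups did not overlap, and the log2 fold change was -0.58 (SE 0.14, adjusted p 0.00016), or -0.17 with TMM (adjusted p 0.013). In CPM it went from 88.8 ± 2.9 to 80.0 ± 4.79.

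The receptors for insulin and insulin-like growth factors did not pass the test with spike-in scaling. IGF1R (ENSG00000140443, chromosome 15, 98648971 to 98964530, plus strand) had 2033, 2029 and 1619 normalized counts in shControl and 1859, 1379.5 and 1642 in shDYRK1A, with overlapping groups and a log2 fold change of -0.22 (SE 0.15, adjusted p 0.172). INSR (ENSG00000171105, chromosome 19, 7112255 to 7294034, minus strand), under the filter and fitted with the wider gene set, had 355, 349.5 and 309 normalized counts in shControl and 369.6, 286 and 278 in shDYRK1A and a value of -0.12 (SE 0.18, adjusted p 0.601). Their CPM values were higher in every shDYRK1A library than in every shControl library, 41.7 ± 1.15 against 48.1 ± 3.44 for IGF1R and 7.46 ± 0.203 against 9.2 ± 0.862 for INSR. With TMM, IGF1R rose by 0.18 (adjusted p 0.0148) and INSR had 0.25 (adjusted p 0.0504). IGF1R passed an adjusted p of 0.05 in the other direction, as lower, without shControl 1C (-0.32, adjusted p 0.0271).

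Counted together, 8 of the 10 receptors passed the filter. With spike-in scaling 3 of them (AXL, PDGFRB and EPHA2) were called lower (adjusted p under 0.05, log2 fold change under -0.7) and 0 were called higher, where 14.3% of all genes were called lower and 0.278% higher. Of all genes called, 98.1% were lower with this scaling and 60.7% with TMM. At an adjusted p alone 6 of the 8 were lower and 0 higher, against 63.4% and 1.08% of all genes. In 6 of the 8 every shDYRK1A library was below every shControl library, as in 63.6% of all genes. Both shares are close to those of all genes. The median log2 fold change of the 8 was -0.62 beside -0.40 for all genes. With TMM 5 of the 8 were lower and 2 higher at an adjusted p below 0.05, where 28.6% of all genes were lower and 27.3% higher. EPHA2 alone also had a TMM fold change below -0.7, as did 1.93% of all genes. In CPM 5 of the 8 did not overlap as lower and 2 as higher, against 29.3% and 33.5% of all genes. INSR and PDGFRA do not enter these counts. The count called lower was 2 without shControl 1B or shDYRK1A 1B and 4 without shControl 1C or shDYRK1A 1A. In the wider fit, where 44.2% of genes were lower and 1.97% higher at an adjusted p below 0.05, PDGFRA was lower and INSR was neither. Without shDYRK1A 1B, the library that stood apart, the log2 fold changes were -0.32 for EGFR, -0.16 for ERBB2, -0.55 for MET, -0.91 for AXL and -0.58 for PDGFRA. They were -0.65 for PDGFRB, -0.50 for FGFR1, -1.05 for EPHA2, -0.06 for INSR and -0.11 for IGF1R. The order of AXL and EPHA2 below the other receptors was the same without it.

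**Figure D3:**
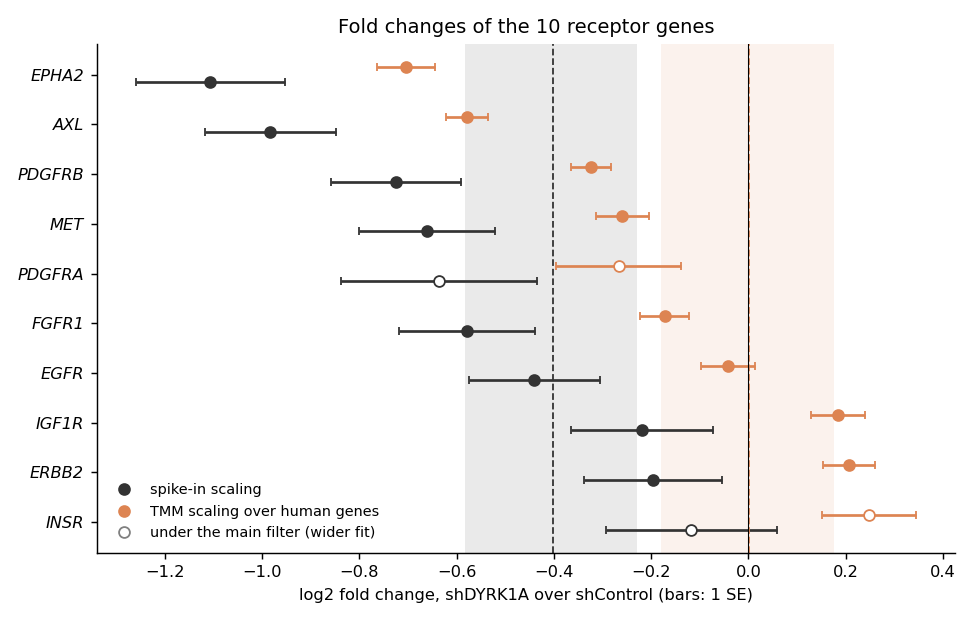
Log2 fold changes of the 10 receptor genes, shDYRK1A over shControl, with spike-in scaling (black) and TMM scaling (orange), and bars of 1 SE. Dashed lines are the medians of all genes past the filter (-0.40 and 0.00), shaded bands their quartiles, and open points PDGFRA and INSR from the wider fit. EPHA2, AXL, PDGFRB, MET and PDGFRA lie below the bands on both scales, and EGFR lies near both medians.

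Ratios between receptors within a library need no size factor, and 11 pairs were compared. EGFR counts over AXL counts gave ratios of 0.715, 0.721 and 0.727 in shControl and 1.1, 0.961 and 1.08 in shDYRK1A. The groups were separate, with every shDYRK1A ratio above every shControl ratio, a difference of 0.53 on the log2 scale. EGFR to EPHA2 gave ratios of 3.84, 4.02 and 3.91 in shControl and 6.32, 5.62 and 6.67 in shDYRK1A, the largest difference of the 11 (0.66). Ratios of EGFR to PDGFRB (0.28) and to MET (0.22) were also higher in every shDYRK1A library. The ratio of EGFR to ERBB2 differed the other way, with 2.65, 2.28 and 2.38 in shControl and 2.12, 1.79 and 2.24 in shDYRK1A (difference -0.25). So did those of EGFR to IGF1R (-0.23) and to INSR (-0.32), again with separate groups. These 7 separate pairs each gave p = 0.1 in a two-sided exact permutation test, the smallest that 3 libraries against 3 allow, and 0.157 after Benjamini-Hochberg adjustment over the 11 pairs, so 0 of the 11 can pass 0.05 in this design. The groups overlapped for EGFR to PDGFRA (0.19, exact p = 0.2) and EGFR to FGFR1 (0.13, exact p = 0.3). They also overlapped for PDGFRA to PDGFRB (0.09, exact p = 0.7) and INSR to IGF1R (0.09, exact p = 0.4). The 9 ratios with EGFR share its counts and are not independent of each other. The share of all genes with a separate ratio to EGFR was not computed. In CPM, where EGFR itself overlapped, 29.3% of all genes did not overlap as lower and 33.5% as higher. The 7 separate pairs are therefore not read as a trait of these receptors.

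**Figure D4:**
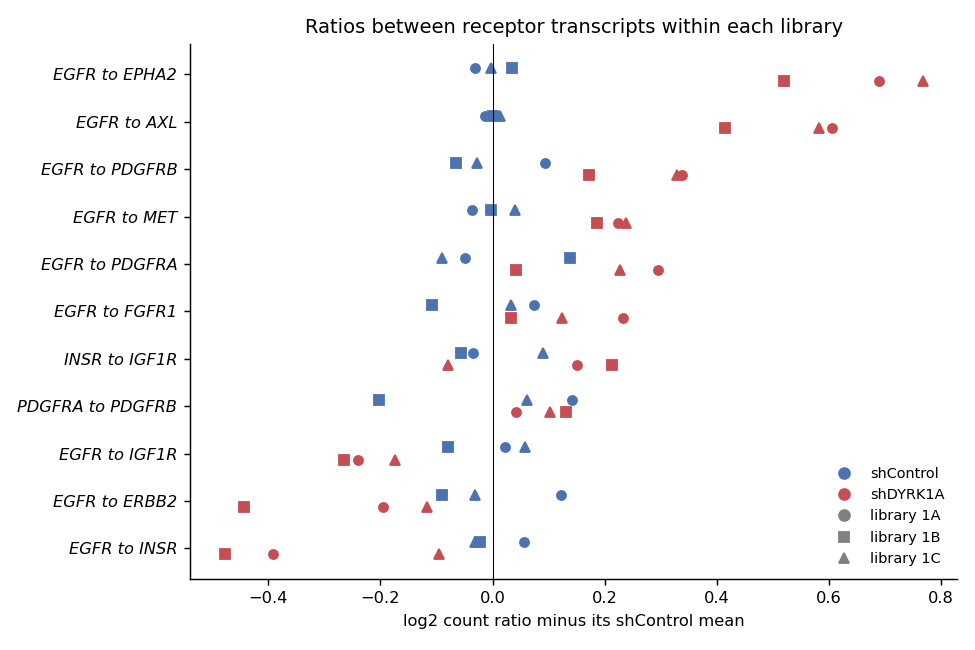
Log2 ratios of raw counts between pairs of receptor genes in each library, each minus the mean of its shControl libraries (horizontal axis), for shControl (blue) and shDYRK1A (red) and libraries 1A, 1B and 1C by symbol. The shDYRK1A libraries lie to the right for EGFR to EPHA2 and EGFR to AXL (differences of 0.66 and 0.53), to the left for EGFR to ERBB2, INSR and IGF1R, and overlap with shControl for 4 pairs.

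The genes whose profile over the 6 libraries was nearest to that of EGFR were sought among the 9697 genes, by the root mean square distance of centred log2 normalized counts. The nearest were KIF1B, a kinesin motor (distance 0.0221), ATR, a kinase of the DNA damage response (0.0228), and USP9X, a deubiquitinase (0.0233), where the median gene had a distance of 0.139. Their log2 fold changes were -0.47, -0.41 and -0.42, and the distance is set by 6 libraries that share their size factors. Of the other receptors past the filter, FGFR1 was nearest to EGFR (distance 0.103), with 27.9% of genes closer. EPHA2 was farthest (0.338), with 95.5% closer. For PDGFRA and INSR, under the filter, no distance was computed.

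Among the other 48 receptor tyrosine kinases, 10 passed the filter, of which EPHB2, RYK and DDR2 were called lower and 0 higher, beside 14.3% and 0.278% of all genes. EPHB2, a receptor for ephrin-B ligands, had 4324, 4186 and 3613 normalized counts in shControl and 1988, 1710.3 and 1743 in shDYRK1A, the lowest fold change of the 18 receptor tyrosine kinases past the filter (-1.16, adjusted p 5.31e-14, and -0.75 with TMM). The Wnt co-receptor RYK (-0.85, TMM -0.45) and the collagen receptor DDR2 (-0.75, TMM -0.35) were lower on both scales, and DDR2 did not reach -0.7 without shControl 1A (-0.69) or shDYRK1A 1B (-0.62). TYRO3, a relative of AXL, fell by 0.64 on the log2 scale (adjusted p 0.000115), while the third receptor of that family, MERTK, was scarce, with means of 112 and 92.6 normalized counts. PTK7 (-0.42, TMM -0.01) and EPHB4 (-0.52, TMM -0.12) had an adjusted p below 0.05 with spike-in scaling alone. EPHA4 stood out on the other side, with 3711, 3677 and 3115 normalized counts in shControl and 4310.2, 3386 and 4067 in shDYRK1A (0.16, adjusted p 0.284) and 77.2, 76.9 and 77.6 CPM in shControl and 118, 108 and 122 in shDYRK1A, a TMM value of 0.57 (adjusted p 1.99e-06). DDR1, the other collagen receptor, was -0.06 with spike-in scaling (adjusted p 0.701) and rose by 0.35 with TMM (adjusted p 0.000242). LMTK2 (-0.32, adjusted p 0.0505) and LTK (-0.28, adjusted p 0.119) did not pass on either scale. Of the 10, 6 were lower and 0 higher at an adjusted p below 0.05, with a median of -0.47 beside -0.40 for all genes, of which 63.4% were lower. With TMM 4 were lower and 2 higher, where all genes gave 28.6% and 27.3%. A further 17 passed only the wider filter, of which 10 were lower and 0 higher (44.2% and 1.97% of all genes in that fit), and 21 passed neither, among them KDR, FGFR2 and EPHA7, with 0 counts in every library.

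Of 28 ligands of the 10 receptors or, for the neuregulins, of partners of ERBB2, 10 passed the filter and 0 were called in either direction, where 14.3% of all genes were called lower. The lowest were NRG1, a neuregulin that binds ERBB3 and ERBB4 (-0.70, adjusted p 7.15e-06), FGF2, a ligand of FGFR1 (-0.66, adjusted p 0.0001), and PDGFA, a ligand of PDGFRA (-0.49, adjusted p 0.00574). NRG1 was just short of the fold-change threshold and passed it in 3 of the 6 fits without 1 library, and FGF2 in 2. Both were also lower with TMM (-0.29 and -0.25), and PDGFA was not past the test there (-0.08, adjusted p 0.429). The highest were EFNA5 (0.11) and EFNA4 (-0.08), both ligands of EPHA2, and PDGFD, a ligand of PDGFRB (-0.11). Their adjusted p was above 0.05 with spike-in scaling, and each rose with TMM, by 0.52, 0.33 and 0.29. Of the 10, 4 were lower and 0 higher at an adjusted p below 0.05, against 63.4% and 1.08% of all genes, and the median was -0.24 beside -0.40. With TMM 2 were lower and 4 higher, against 28.6% and 27.3%. Of the ligands of EGFR, EGF passed the filter (886 ± 59 and 729 ± 116 normalized counts, -0.28, adjusted p 0.0993), HBEGF and TGFA passed the wider one, and AREG had 0 counts in every library. HGF, the ligand of MET, had means of 3.03 and 5.47 normalized counts.

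Of 36 adaptors and core signalling genes, 32 passed the filter, 5 were called lower and 0 higher, beside the 14.3% and 0.278% of all genes. IRS1, the main docking protein of INSR and IGF1R, went from 1307 ± 154 to 603 ± 62.4 normalized counts (-1.11, adjusted p 3.44e-11, TMM -0.71). The RAS family gene NRAS was also called (-0.75, TMM -0.35). PIK3R1, a regulatory subunit of PI3K, was just past the fold-change threshold (-0.70, TMM -0.30). PIK3R1 fell short of it in 3 of the 6 fits without 1 library (shControl 1A, shControl 1B or shDYRK1A 1B, -0.66 to -0.56) and NRAS without shControl 1B (-0.69) or shDYRK1A 1B (-0.67). The highest were STAT3 (0.08), BRAF (-0.02) and the kinase ERK1, encoded by MAPK3 (-0.06), which had adjusted p-values above 0.05 with spike-in scaling and rose with TMM, by 0.48, 0.38 and 0.34. In all, 21 of the 32 were lower and 0 higher at an adjusted p below 0.05, near the 63.4% and 1.08% of all genes, and their median of -0.38 was near -0.40. With TMM 6 were lower and 10 higher, where 28.6% and 27.3% of all genes were. NRAS and PIK3R1 fall outside the rule for named genes and were chosen after their values were seen.

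The genes of receptor ubiquitination, endocytosis and sorting were the ones nearest to the question of EGFR turnover, and all 34 passed the filter. SPRY2 was the only one called higher. It had 416, 381 and 316 normalized counts in shControl and 707, 555 and 591 in shDYRK1A, and the lowest shDYRK1A library was above the highest shControl library. The log2 fold change was 0.74 (SE 0.17, adjusted p 5.5e-05), and 1.14 with TMM (adjusted p 4.77e-07). Over all 9697 genes, 27 (0.278%) were called higher and 14.3% lower. ERRFI1, whose product MIG6 binds and inhibits the EGFR kinase, was the only one called lower, with 10366, 10363 and 8823 normalized counts in shControl and 5206, 4314 and 5089 in shDYRK1A (-1.02, SE 0.14, adjusted p 3.56e-12, TMM -0.61). SPRY2 was below the fold-change threshold without shControl 1C or without shDYRK1A 1A (0.63 in either), and its adjusted p stayed below 0.05 in all 6 fits without 1 library. RIN1, an exchange factor for RAB5, had a value of -0.66 (adjusted p 5.59e-05, TMM -0.25) and the ubiquitin ligase CBL one of -0.61 (adjusted p 6.63e-05, TMM -0.22). The clathrin light chain CLTB (0.30, adjusted p 0.0545) and the adaptor EPN1 (-0.01, adjusted p 0.943) were the highest after SPRY2, and with TMM they rose by 0.71 and 0.40. Of the 34, 17 were lower and 1 higher at an adjusted p below 0.05, beside 63.4% and 1.08% of all genes, and their median was -0.31 beside -0.40. With TMM 5 were lower and 14 higher, beside 28.6% and 27.3% of all genes.

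Shedding proteases, co-receptors and receptor-bound inhibitors closed the list, with 12 of 14 genes past the filter, 4 called lower and 0 higher (all genes, 14.3% and 0.278%). The neuropilin NRP2 was the lowest (-1.23, adjusted p 6.92e-14, TMM -0.83), followed by GRB10, which binds and restrains the insulin and IGF1 receptors (-1.02, adjusted p 1.11e-10, TMM -0.62), and the heparan sulfate proteoglycan SDC1 (-0.98, adjusted p 1.45e-10, TMM -0.57). The fourth, NRP1, named after its value was seen, had -0.72 (TMM -0.32) and fell short of the threshold in 3 of those fits, when shDYRK1A 1B, shControl 1A or shControl 1B was left out (-0.69 to -0.63). The highest were SDC4 (0.05, adjusted p 0.741, TMM 0.46), the shedding protease ADAM10 (-0.21, adjusted p 0.174, TMM 0.19) and IGF2R, which takes up IGF2 without a kinase of its own (-0.32, adjusted p 0.0292, TMM 0.08). The adjusted p of IGF2R was below 0.05 in 2 of the 6 fits without 1 library. In this list 10 of 12 were lower and 0 higher at an adjusted p below 0.05, where 63.4% and 1.08% of all genes were, and the median was -0.53 against -0.40. With TMM 6 were lower and 2 higher, where 28.6% and 27.3% of all genes were.

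**Figure D5:**
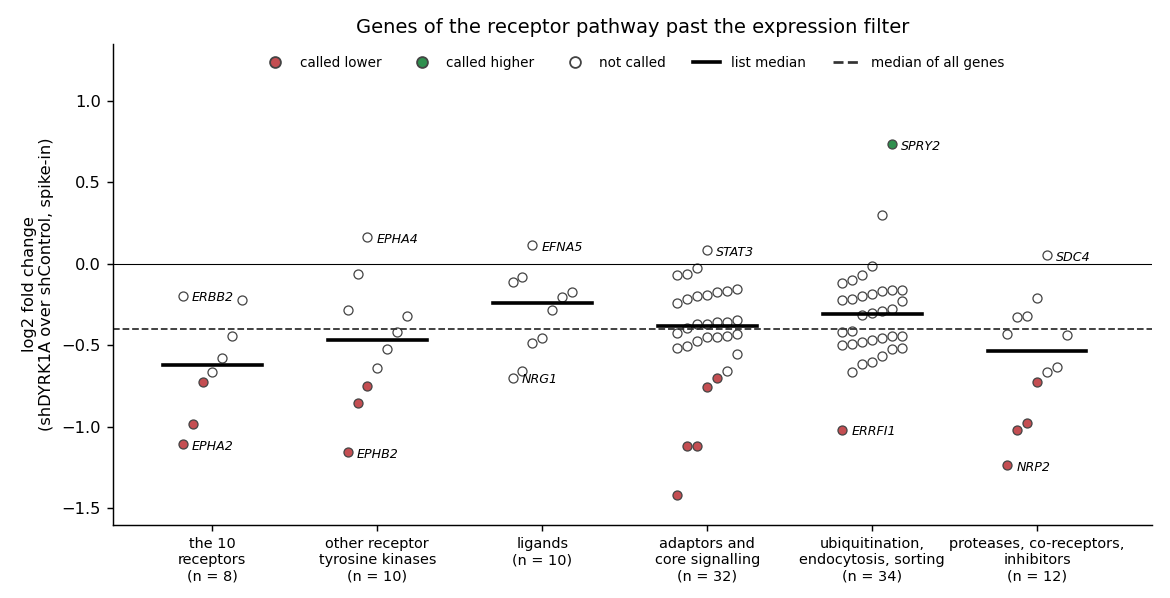
Log2 fold changes with spike-in scaling of the genes past the filter in each list of the receptor pathway, with the highest gene of each list named, and the lowest in all lists but the adaptors. Bars are list medians, the dashed line is the median of all genes (-0.40), red points were called lower, and SPRY2 (0.74) is the only green point, called higher.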

How the data were processed

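RNA from 6 T98G libraries (3 shControl, 3 shDYRK1A) was sequenced by the authors as stranded, paired-end mRNA-seq. Per the labels the tools were STAR and DESeq2 and the builds hg38 and dm3. The authors deposited raw gene counts per library, below 4 summary lines that entered neither the library sizes nor a test. They also deposited a table of signal values, the counts divided by a spike-in size factor, from which the factors were read back. Fly counts were not used here. Another deposited table holds the authors' log2 fold changes and p-values, which were not used. Columns that matched no sample numbered 0.

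Counts were tested with edgeR 4.0.16 (quasi-likelihood, R 4.3.3) with the spike-in factors as offsets, on 9697 genes with a mean normalized CPM above 10. The test was first tested on simulated data. Calls needed both an adjusted p under 0.05 and a log2 fold change beyond 0.7 in size. PDGFRA, INSR and other low genes came from the same test on the 17530 genes kept by filterByExpr. Alternatives were TMM, median-of-ratios scaling, DESeq2 1.42.0, other filters, each library left out in turn, and the library letter as a block. The model held no covariates, only the groups. The difference of log2 ratios was tested with an exact permutation test over libraries (scipy 1.17.1). Per-kb levels used the union of exons in the reference annotation. Of its gene coordinates, 95.8% equalled those of the file. Promoters were those of RefSeq.

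Genes were mainly named by rule: the 10 receptors, DYRK1A, SPRY2, ERRFI1, every other receptor tyrosine kinase past the filter, the 3 genes at each end of every other list, and the 3 nearest to EGFR. Outside this rule, NRAS, PIK3R1, NRP1, EGF, VIM, SOX9 and CHI3L1 were named after their values were seen. So were CSF1R, RET, ROR1, IGF2, FGF1, EPHA5, TEK and KIT in the closing section. Some scarce genes, such as ERBB3, ERBB4, MERTK and HGF, were also named outside the rule. The values of 2 genes that the rule names among the adaptors are not reported here. The members and lists were chosen with earlier results of these data known. Library totals of 33708297 to 42154438 counts limit precision mainly for low genes.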

Additional observations from a re-analysis of the deposited data

How the results depend on the processing

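The scaling decided most of the directions that changed. With TMM and with median-of-ratios scaling, both over human genes, EGFR had -0.042 and -0.039, and the following turned positive: ERBB2 (0.21 and 0.21), INSR (0.25 and 0.25), IGF1R (0.18 and 0.19), DDR1 (0.35 and 0.35), LMTK2 (0.078 and 0.082), LTK (0.12 and 0.13), PDGFD (0.29 and 0.29), EFNA4 (0.33 and 0.33), MAPK3 (0.34 and 0.35), BRAF (0.38 and 0.38), EPN1 (0.40 and 0.40), IGF2R (0.081 and 0.084), ADAM10 (0.19 and 0.20) and EGF (0.12 and 0.12). By construction these scalings set the typical gene to about 0. Receptors called lower numbered 1 under TMM and 1 under median-of-ratios scaling, and over all genes 187 and 184 were called lower and 121 and 125 higher, against 1386 and 27 under the spike-in factors.

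Leaving out 1 library moved EGFR between -0.54 and -0.32, the receptors called lower between 2 and 4, and all genes called between 908 and 2093 lower and between 16 and 32 higher. The lower count was 2093 without shControl 1C, 2083 without shDYRK1A 1A and 908 without shDYRK1A 1B, and the higher count was 16 without shControl 1C. Values near 0 changed sign in these fits: EFNA4 (-0.16 to 0.037), BRAF (-0.10 to 0.078), STAT3 (-0.0092 to 0.18), EPN1 (-0.093 to 0.12) and SDC4 (-0.030 to 0.12). The log2 ratio of PDGFRA to PDGFRB ranged from -0.011 without shControl 1B to 0.16 without shControl 1A.

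With filterByExpr 2492 genes were called lower and 229 higher, with no filter beyond 1 count 2468 and 224, where more genes were tested, and without the fold-change threshold 6145 and 105, with 6 receptors lower. DESeq2 called the same 1386 genes lower and the same 27 higher, because every gene past the fold-change threshold also had an adjusted p below 0.05 in both tools, so that threshold alone set these counts. Same-lettered libraries of the 2 groups correlated by 0.15, 0.073 and 0.13 in their deviations from the group means. Libraries of different letters gave -0.094 to -0.014, so every library correlated best with its own letter. The main fit still used the letters as names only, and whether they mark a shared preparation was not tested. With the replicate block 1394 genes were lower and 28 higher, 3 receptors were lower, and EGFR had -0.45. The cause of the other changes was not tested.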

Other observations

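Several low receptors and ligands, under the filter of 10 and so measured only in the wider fit, had lower fold changes than any of the 10 receptors described above. They were chosen after their values were seen. In that fit 44.2% of all genes were lower and 1.97% higher at an adjusted p below 0.05, and the share without overlap was not computed. CSF1R, the receptor for the macrophage growth factor CSF1, had 70.6, 90.8 and 62.3 normalized counts in shControl and 39.7, 14.8 and 14 in shDYRK1A (log2 fold change -1.71, adjusted p 2.81e-07). Each shDYRK1A library was below each shControl library. RET, the receptor for GDNF-family ligands, had means of 43.9 ± 8.82 and 13.7 ± 1.28 normalized counts (-1.66, adjusted p 6.49e-05), and ROR1, a receptor for Wnt ligands, had 141 ± 17.6 and 49.1 ± 14 (-1.51, adjusted p 1.15e-08). Ligands were among them too. IGF2, which binds IGF1R, had 385 ± 48.6 and 176 ± 4.28 (-1.13, adjusted p 2.5e-08), and FGF1, which binds FGFR1, had 141 ± 15.2 and 62.5 ± 10.3 (-1.16, adjusted p 6.82e-06). With TMM the 5 values were -1.36, -1.28, -1.14, -0.75 and -0.79, and each kept an adjusted p below 0.05. The spread of CSF1R was wide in shDYRK1A, at 22.8 ± 14.6 (SD, n = 3). Other low receptors went the other way in the wider fit: ERBB3 (0.57), EPHA5 (0.48), TEK (0.30) and KIT (0.03). Their adjusted p was above 0.05 with spike-in scaling. With TMM, EPHA5 rose by 0.84 (adjusted p 0.0161), TEK by 0.68 (adjusted p 0.00657) and KIT by 0.40 (adjusted p 0.047). ERBB3 had 0.92 there (adjusted p 0.127).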
